A study of Mus musculus with 8 samples.

Results

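The nuclear factor I (NFI) family comprises 4 genes in mouse, Nfia, Nfib, Nfic and Nfix, and the results below describe the H3K27ac peaks called over each gene span and 50 kb to each side of it. The windows held 546 of the 378594 peaks used over 8 libraries, and the 4 genes are members of a table of 21627 protein-coding genes. The libraries were chromatin immunoprecipitations of H3K27ac, an acetylation of histone H3 carried by active promoters and enhancers, from C57/BL6 mouse primary neuronal cultures. From day 6 in vitro all cultures spent a night in 1 µM TTX (tetrodotoxin), which blocks sodium channels, and in 100 µM D-AP5, which blocks NMDA receptors, so that their activity was silenced. The 4 groups were MGE KCl and MGE unstimulated, then CTX KCl and CTX unstimulated, with 2 libraries each. KCl cultures received 55 mM KCl for 2 h on day 7, which depolarises neurons, and unstimulated cultures did not. MGE commonly stands for the medial ganglionic eminence, where many cortical interneurons arise, and CTX for the cortex. The labels conflict on age, with embryonic day 14 in the CTX titles and embryonic day 16 in the source of every library, and the cell type field reads cortical neurons for the MGE libraries too, so groups rest on the titles.

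NFI proteins bind DNA as dimers, as homodimers or as heterodimers of any family members, at a palindrome made of TTGGC and GCCAA, each of which can also be bound alone. In the developing forebrain Nfia, Nfib and Nfix promote the differentiation of radial glia and the onset of gliogenesis, above all astrocyte formation, and Nfib also acts in deep-layer cortical neurons and callosal projections. Nfic is best known for tooth root development and is widely expressed.

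Nfia (gene 18027) spans chr4:97578066-98118876 in mm10, 540.81 kb, and has no other protein-coding gene in its window. Nfib (gene 18028) lies on the same chromosome at chr4:82290173-82506751, 216.58 kb, again with no other gene in the window. Nfix (gene 18032) spans chr8:84704712-84801238 and Nfic (gene 18029) chr10:81396191-81431919, and each of these shorter genes shares its window with 8 other genes.

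Promoter sequences, 250 bases before to 50 after a transcript start, are shown where a peak or its lack bears on the results. They come from RefSeq on GRCm38.p6, the assembly with mm10 coordinates, where Nfia has 1 entry, Nfix 4 and Nfic 1. Their transcript starts lie inside the gene spans, 3.88 kb from the 5' end at Nfia, 4.75 kb at Nfic and 21.2 to 28.4 kb at Nfix. The Nfia promoter was under a peak in all 4 CTX libraries and in 0 of 4 MGE libraries, as was the fourth Nfix promoter. The Nfic promoter was under no peak in any library. Capitals mark a match to the AP-1 motif TGANTCA, the site of Fos and Jun dimers.

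Nfia promoter, chr4:97581693-97581992, plus strand: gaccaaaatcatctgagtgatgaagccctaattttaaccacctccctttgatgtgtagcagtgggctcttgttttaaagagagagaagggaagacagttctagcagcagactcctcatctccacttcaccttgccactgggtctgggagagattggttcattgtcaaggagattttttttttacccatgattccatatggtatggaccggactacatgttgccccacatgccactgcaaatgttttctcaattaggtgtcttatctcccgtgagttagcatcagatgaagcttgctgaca
Nfix promoter 4, chr8:84772826-84773125, minus strand: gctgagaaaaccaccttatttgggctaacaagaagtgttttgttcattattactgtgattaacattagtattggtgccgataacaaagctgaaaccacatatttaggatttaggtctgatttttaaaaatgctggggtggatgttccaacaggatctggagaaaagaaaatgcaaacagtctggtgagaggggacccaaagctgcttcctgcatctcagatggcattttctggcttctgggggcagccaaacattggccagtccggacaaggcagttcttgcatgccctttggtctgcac
Nfic promoter, chr10:81427124-81427423, minus strand: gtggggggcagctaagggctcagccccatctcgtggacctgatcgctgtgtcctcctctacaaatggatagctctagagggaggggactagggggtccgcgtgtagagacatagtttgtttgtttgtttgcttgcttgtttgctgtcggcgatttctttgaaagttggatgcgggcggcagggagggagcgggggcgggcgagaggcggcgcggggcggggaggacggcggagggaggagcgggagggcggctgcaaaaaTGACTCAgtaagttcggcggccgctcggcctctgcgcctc

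The Nfia and Nfix promoter sequences were AT-rich beside the Nfic one. GC made up 44.7% of the Nfia sequence, 44.3% of the fourth Nfix sequence and 63.0% of the Nfic sequence, against a median of 53.0% over 32619 promoters. The Nfia sequence holds 2 CpG dinucleotides, the fourth Nfix sequence 2 and the Nfic sequence 24, against a median of 7.

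Of the 6 NFI family promoters in the table, 2 contain AP-1 matches, which occur in 7.85% of all promoters when both strands are read. They are the Nfic match, at base 261 of the window, and 1 in the first Nfix promoter (chr8:84780033-84780332), at base 170, which had a peak in 3 of 4 CTX libraries and in 0 of 4 MGE libraries. The single NFI site was searched for as TTGGCA, present in 14.1% of promoters, and was not found in these windows. Neither was the NFI palindrome with 5 bases between TTGGC and GCCAA, present in 0.0368%, nor the cAMP response element TGACGTCA, present in 1.8%. The shorter TTGGC or GCCAA alone was not searched for, and both occur in the fourth Nfix promoter printed above.

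Of the 6 promoters, 2 had a peak in all 4 CTX and no MGE library, the Nfia promoter and the fourth Nfix promoter. Over the Nfia promoter the peak had a fold enrichment, the authors' own value for each peak, of 1.87 to 2.14 in the CTX libraries, and the nearest MGE peak lay 1.26 to 67.7 kb from the transcript start. Over the fourth Nfix promoter it was 1.58 to 2.20 in the CTX libraries. Where overlapping peaks of the libraries were joined and the strongest of each library taken, the lowest MGE value in the 4 windows was 2.22. The CTX peaks over these 2 promoters were thus weaker than that, and the lack of an MGE peak there does not show a lack of acetylation. A peak in all 4 CTX libraries and no MGE library was found at 0.481% of all promoters. The other Nfix promoters were mixed, with peaks in 2 of 4 MGE and 2 of 4 CTX libraries at chr8:84775779-84776078, and in 1 of 4 MGE and 2 of 4 CTX libraries at chr8:84773361-84773660. At the Nfic promoter the nearest peak lay 1.9 to 3.33 kb from the transcript start over the 8 libraries, and 57.8% of promoters likewise had no peak in any library. Between that start and the 5' end of the Nfic span, overlapping peaks at chr10:81429922-81431361 were called in all 8 libraries. Their fold enrichments were 3.09 to 5.20.

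The main difference in the NFI family was between the cultures. Peaks covered less of the Nfia, Nfib and Nfix windows in MGE than in CTX cultures, and slightly more of the Nfic window per Mb called, a direction that turned without scaling, while no member passed the test for a response to 2 h of KCl. Nfia stood furthest apart: its log2 difference of MGE over CTX was the 7th lowest of 15393 windows tested. In the plot of called length by library, every MGE library lies below every CTX library for Nfia, Nfib and Nfix, and above them for Nfic on the scale per Mb called, which is not the order of the unscaled lengths.

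**Figure D1:**
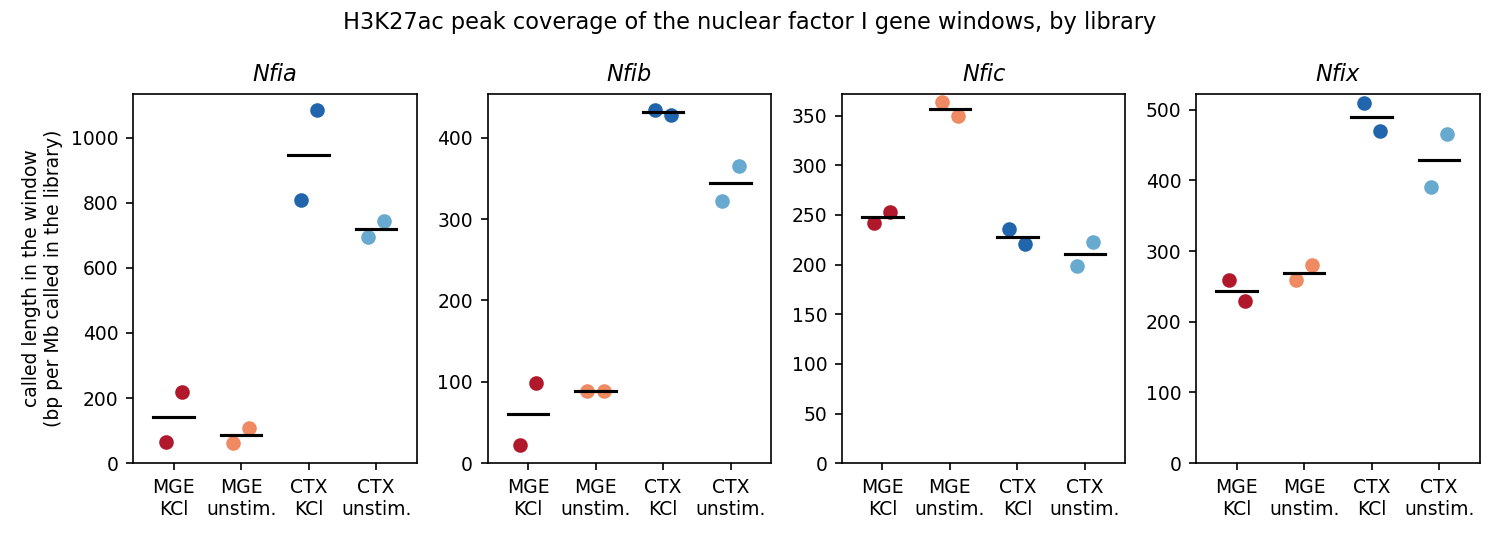
Called length in each gene window (span and 50 kb to each side), in bp per Mb called in that library, for the 8 libraries; points are libraries, in replicate order within a group, and bars are group means. The MGE libraries lie at 62.5 to 219 for Nfia, against 695 to 1084 in CTX, and at 242 to 364 for Nfic, against 198 to 235 in CTX, an order that the lengths without scaling do not show.

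Nfia, which initiates gliogenesis in the developing nervous system, was covered over 1.372 and 7.026 kb in MGE KCl, 1.439 and 2.264 kb in MGE unstimulated, 23.015 and 48.484 kb in CTX KCl, and 16.362 and 31.888 kb in CTX unstimulated libraries. Among the 21627 windows, ranked by called length in each library, Nfia stood at positions 1675 to 11977 in MGE and 4 to 17 in CTX. A window's length enters such a rank, and that of Nfia is 640.81 kb. Since libraries differed in how much was called, lengths were divided by the total called per library, in Mb. On that scale Nfia had 63.9 and 219 bp per Mb in MGE KCl, 62.5 and 108 bp per Mb in MGE unstimulated, 809 and 1084 bp per Mb in CTX KCl, and 695 and 743 bp per Mb in CTX unstimulated libraries. The cultures did not overlap, and the highest MGE library was the KCl library 2.

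Tested with limma on log2(bp per Mb + 20) over all windows with a mean called length of at least 1 kb, Nfia had a log2 difference of −2.80 ± 0.18 (SE; Benjamini-Hochberg adjusted p = 5.62e-17), with means of 113 ± 73.7 bp per Mb in MGE and 833 ± 174 bp per Mb in CTX (SD, n = 4 libraries each). Of the windows tested, 14.8% were called lower and 15.1% higher in MGE at an adjusted p under 0.05, and 11.1% had all 4 MGE below all 4 CTX libraries, against 11.8% with all 4 above. The 4 members were all called, 3 lower and 1, Nfic, higher on this scale but not without scaling, in a comparison that therefore called many windows. The exact permutation test over libraries (two-sided, 4 against 4) gave p = 0.0286 for each of the 4 members, the smallest it can give. The labels call libraries of a group biological replicates without saying what was kept separate, so the spread between libraries may be partly technical. In limma with a trended prior, the variance of each window is drawn towards that of windows with a similar mean level. The SE of 0.18 and the adjusted p of 5.62e-17 for Nfia therefore do not measure the spread between its own libraries alone. The same holds for the other limma standard errors and p-values given here.

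Nfib, which acts in lung maturation and in cortical gliogenesis and axon tracts, showed the same order with shorter lengths: 0.488 and 3.152 kb in MGE KCl, 2.054 and 1.856 kb in MGE unstimulated, 12.341 and 19.152 kb in CTX KCl, and 7.592 and 15.703 kb in CTX unstimulated libraries. Per Mb called these were 22.7 and 98.4 bp in MGE KCl, 89.2 and 88.2 bp in MGE unstimulated, 434 and 428 bp in CTX KCl, and 323 and 366 bp in CTX unstimulated libraries. The cultures did not overlap, and MGE KCl library 1 was low even among the MGE libraries, with 1 peak in the window. The log2 difference of MGE over CTX was −2.20 ± 0.19 (limma, adjusted p = 3e-13), from means of 74.6 ± 34.9 bp per Mb in MGE and 388 ± 53.2 bp per Mb in CTX (SD, n = 4 each), the 58th lowest of the windows tested.

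Nfix, which regulates neural stem cell quiescence and hippocampal development, had 5.570 and 7.329 kb in MGE KCl, 5.980 and 5.885 kb in MGE unstimulated, 14.474 and 21.011 kb in CTX KCl, and 9.206 and 19.978 kb in CTX unstimulated libraries. Per Mb called this was 259 and 229 bp in MGE KCl, 260 and 280 bp in MGE unstimulated, 509 and 470 bp in CTX KCl, and 391 and 465 bp in CTX unstimulated libraries. Again the cultures did not overlap, at a narrower distance than for Nfia or Nfib. The log2 difference was −0.79 ± 0.14 (limma, adjusted p = 1.09e-05), from means of 257 ± 21.0 bp per Mb in MGE and 459 ± 49.2 bp per Mb in CTX (SD, n = 4 each).

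In MGE most of the called length of the Nfix window lay outside the gene. Within the span were 0.244 and 1.235 kb in MGE KCl, 1.149 and 1.840 kb in MGE unstimulated, 6.622 and 12.454 kb in CTX KCl, and 5.075 and 10.812 kb in CTX unstimulated libraries. All 5 merged peaks present in all 8 libraries at Nfix lay in its flanks, where Trmt1, a tRNA methyltransferase, held 10.0% of the window's called length and Calr, the endoplasmic reticulum chaperone calreticulin, 7.49%. Over the span alone the log2 difference was −2.11 (limma, adjusted p = 2.09e-07). With peaks of −log10 q of at least 5 only, the Nfix window was not called (log2 −0.79, limma adjusted p = 0.146). Over its own span Ier2, an immediate early gene in the Nfix window, had 0 bp called in all 4 MGE libraries. It had 414 and 318 bp in CTX KCl and 0 and 330 bp in CTX unstimulated libraries. Close beyond the Ier2 span, the merged peak chr8:84664079-84665826 was called in all 8 libraries. Its fold enrichments were 2.90 to 4.65 in MGE and 2.83 to 3.82 in CTX libraries.

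Nfic went the other way. Its window had 5.195 and 8.110 kb called in MGE KCl, 8.382 and 7.363 kb in MGE unstimulated, 6.696 and 9.869 kb in CTX KCl, and 4.666 and 9.561 kb in CTX unstimulated libraries, with the cultures overlapping. Only after division by the total called did they part: 242 and 253 bp per Mb in MGE KCl, 364 and 350 bp per Mb in MGE unstimulated, 235 and 221 bp per Mb in CTX KCl, and 198 and 223 bp per Mb in CTX unstimulated libraries. The gap between the lowest MGE and the highest CTX library was small, and the MGE unstimulated libraries were the highest.

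The log2 difference of Nfic was 0.41 ± 0.15 (limma, adjusted p = 0.0278), from means of 302 ± 63.6 bp per Mb in MGE and 219 ± 15.4 bp per Mb in CTX (SD, n = 4 each). This call depended on the scaling: the difference was −0.045 without scaling (limma, adjusted p = 0.911) and 0.28 with lists cut to equal called bases (limma, adjusted p = 0.258). It was also lost on leaving out any 1 of 6 of the 8 libraries, namely each of the 4 MGE libraries, CTX KCl library 2 and CTX unstimulated library 1, with adjusted p-values of 0.0657 to 0.115 (limma). Celf5, an RNA-binding protein gene in the flank, held 30.5% of the called length of the Nfic window.

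**Figure D2:**
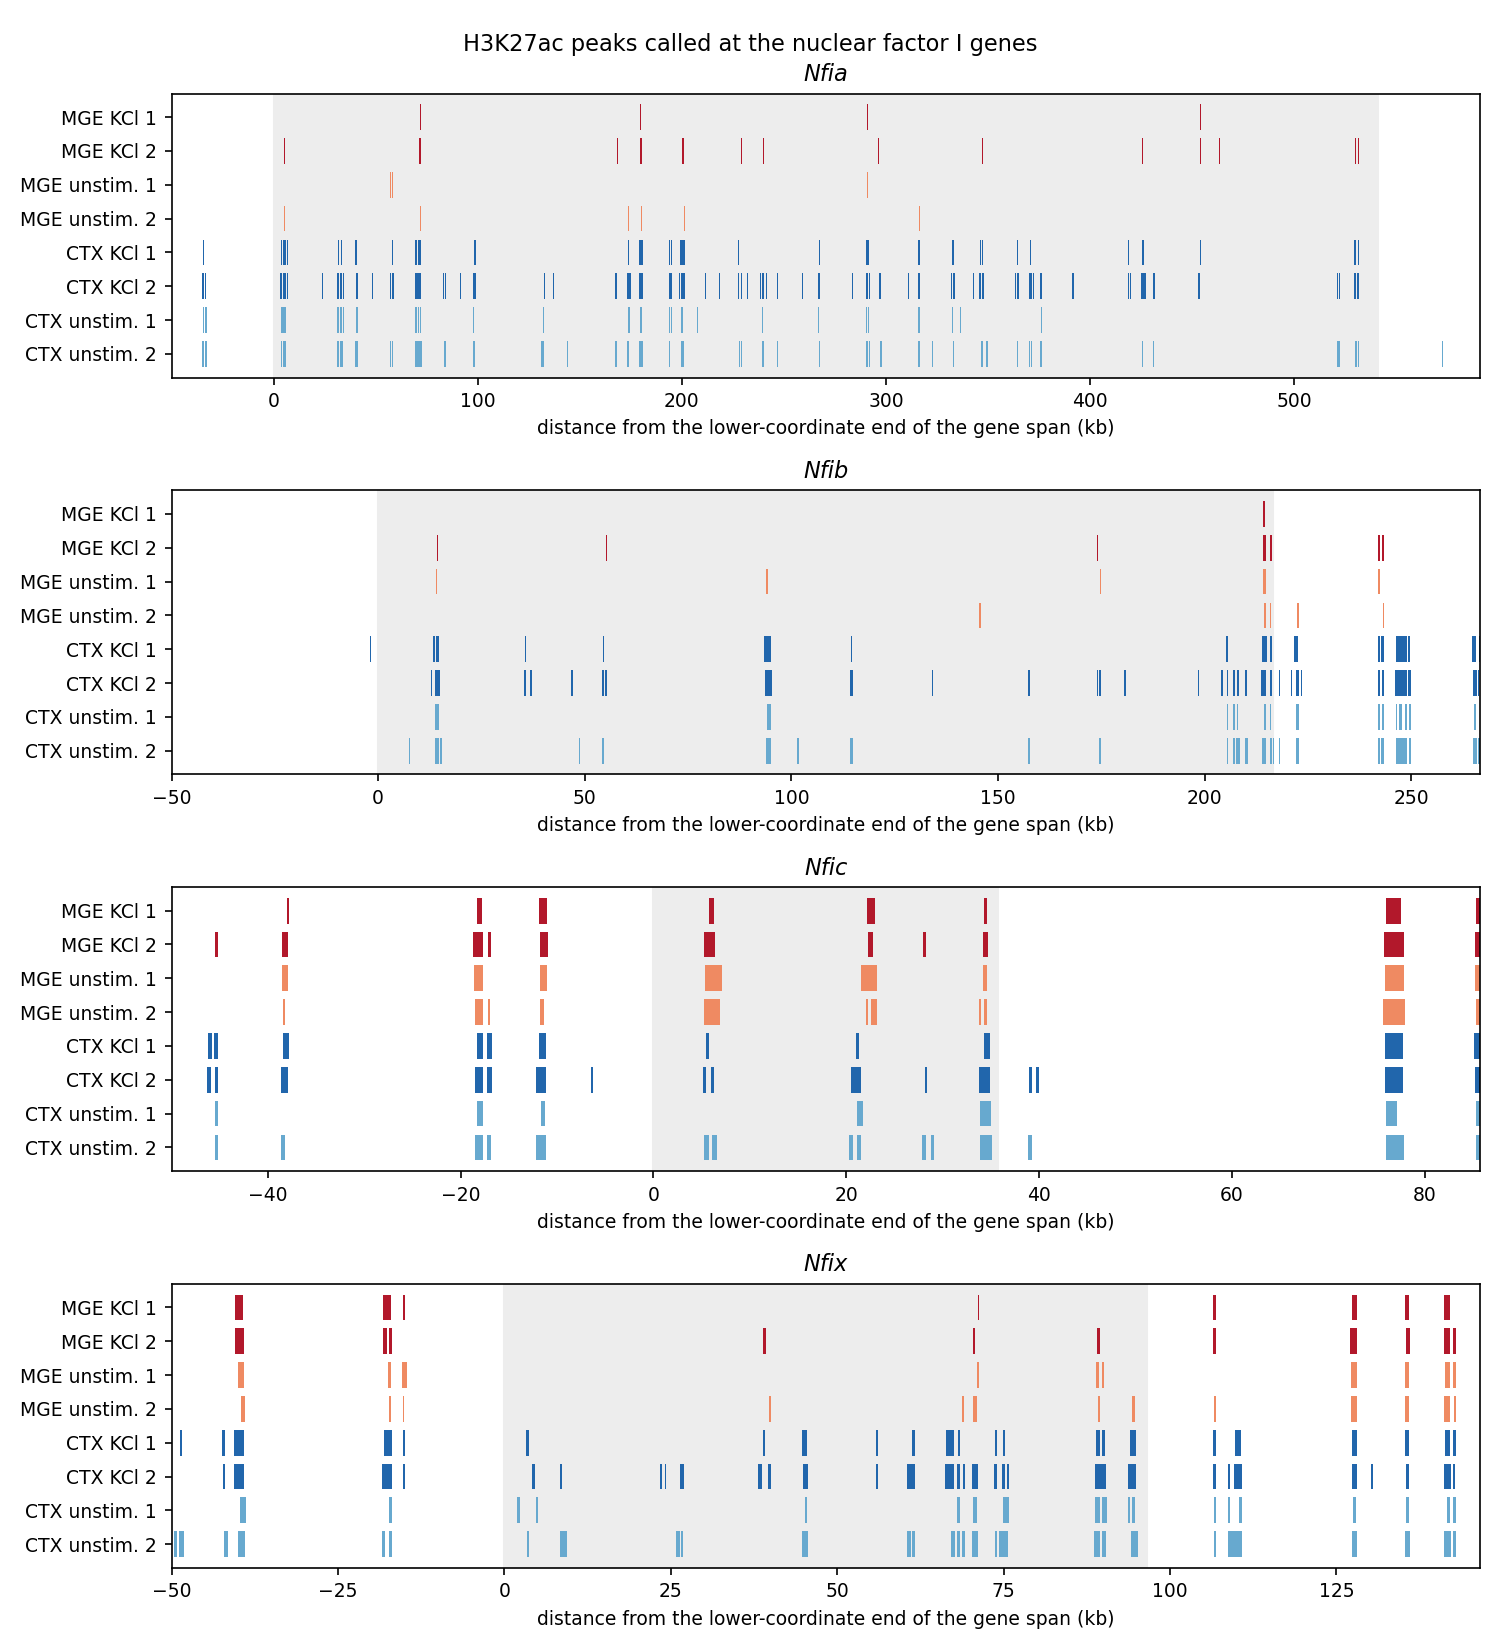
Peaks called in each library (rows) along the 4 windows, by distance in kb from the lower-coordinate end of the gene span, which is shaded; the bars are peaks. At Nfia the 4 CTX rows carry 31 to 72 peaks and the 4 MGE rows 3 to 14, while at Nfic 6 of 16 merged peaks are in all 8 rows.

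The total called was 21.5 and 32.0 Mb in MGE KCl, 23.0 and 21.1 Mb in MGE unstimulated libraries. It was 28.45 and 44.7 Mb in CTX KCl, and 23.5 and 42.9 Mb in CTX unstimulated libraries. The totals of the cultures overlapped, with the highest in CTX and the lowest in MGE. The part of list size in the Nfia difference was not tested. MGE KCl library 2 had 32.0 Mb called and 14 peaks at Nfia, against 23.5 Mb and 31 peaks in CTX unstimulated library 1. With all lists cut to equal called bases, the log2 difference of MGE over CTX was −3.16 for Nfia (limma, adjusted p = 1.1e-05) and −2.43 for Nfib (limma, adjusted p = 1.34e-05). Absence from a peak list is not absence of acetylation, and read depth is unknown.

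Overlapping peaks of the 8 lists were merged to see where along each gene the coverage lay. At Nfia 77 merged peaks resulted, 74 of them touching the span, and 58 held peaks of CTX libraries only, 1 of MGE libraries only and 18 of both cultures. None of the 77 was called in all 8 libraries or in all 4 MGE libraries, and 16 were called in all 4 CTX libraries, 9 of these without any MGE peak. Peaks seen in 1 library made up 29 of the 77. In 20 kb steps along the Nfia window, 13 of 32 steps had called bases in all 4 CTX libraries, 0 of 32 in all 4 MGE libraries, and 17 of 32 had none in any MGE library, so the CTX coverage was spread over the gene and not gathered at its promoter.

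Individual Nfia peaks were modest. The strongest had a fold enrichment of 3.38 to 4.16 in each CTX library and of 3.42 to 4.39 in each MGE library, and stood at the 60.0 to 83.6 percentile of their own lists. The cultures parted in how many peaks were called at Nfia, 4 and 14 in MGE KCl, 3 and 6 in MGE unstimulated, 33 and 72 in CTX KCl, and 31 and 46 in CTX unstimulated libraries. Among peaks of −log10 q of at least 5 the log2 difference of Nfia was −4.66 (limma, adjusted p = 0.000641).

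Nfib had 38 merged peaks, of which 27 were of CTX libraries only, 1 of MGE libraries only and 10 of both. A single merged peak, chr4:82503880-82505150, near the upper end of the span, was called in all 8 libraries. Beyond that end, in the flank, a merged peak of 2870 bp (chr4:82536357-82539226) was called in all 4 CTX and in no MGE library. Nfix had 36 merged peaks, 4 of them in all 4 CTX and no MGE library, including chr8:84779095-84780486 over the first promoter. Nfic had 16, of which 6 were called in all 8 libraries and 0 in all 4 CTX libraries alone.

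Over the 4 windows, 17 of 167 merged peaks (10.2%) were in all 4 CTX and no MGE library, against 4.83% of the 113591 merged peaks of the genome. In all 4 MGE and no CTX library there were 0 of 167, against 2.68% of the genome. Counted in bins of 500 bp, at least 50% covered, the CTX-only bins were 21 of 248 (8.47%), against 3.51% of the genome, and consisted of 13 at Nfia, 6 at Nfib and 2 at Nfix. MGE-only bins were 0 of 248, against 1.75%. Bins called in all 8 libraries were 11 of 248 (4.44%), against 8.81%, with 7 of the 11 at Nfic, 3 at Nfix, 1 at Nfib and 0 at Nfia. Bins of a window lie next to each other and share libraries, so these shares are descriptions. Leaving out a library can only lengthen the sums of culture-restricted bins: the CTX-only bins, 10.5 kb, became 17 kb without CTX KCl library 1 and 20.5 kb without CTX unstimulated library 1, and the MGE-only bins 0.5 kb without MGE unstimulated library 2 or CTX unstimulated library 2.

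Runs of CTX-only bins marked 3 regions inside Nfia and 1 beyond Nfib. The Nfia region chr4:97618001-97619000 had fold enrichments of 3.38 and 4.16 in CTX KCl and 3.38 and 3.37 in CTX unstimulated libraries. The Nfia region chr4:97647501-97648500 had 2.86 and 2.43 in CTX KCl and 3.10 and 2.66 in CTX unstimulated libraries. No MGE peak touched these 2 regions, whereas a short peak of MGE unstimulated library 2 touched the third, chr4:97751501-97752500. The Nfib region, chr4:82537001-82538000, had fold enrichments of 1.72 to 1.79 over the 4 CTX libraries. The longest region called in all 8 libraries, chr10:81472001-81473500 in the Nfic window, lay within Celf5, at fold enrichments of 2.94 to 3.41 in MGE and 2.90 to 3.36 in CTX libraries.

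The KCl comparison asks whether depolarisation for 2 h changed the acetylated length at these genes. In MGE, KCl over unstimulated, 0 of 4 members were called, where 2.75% of windows were called higher and 1.69% lower. In CTX 0 of 4 were called, where 0.864% were called higher and 0.617% lower. For the difference of the responses, MGE minus CTX, 0 of 4 were called, where 0.195% of windows were called higher and 0.143% lower. Before adjustment the limma p in MGE was 0.0265 for Nfib and 0.0208 for Nfic, both lower with KCl. In the difference of the responses it was 0.0183 for Nfib and 0.045 for Nfic. The lowest of the other unadjusted limma p-values was 0.0809, for Nfia in MGE. The share of all windows with an unadjusted p under 0.05 was not counted, so these values are descriptions. Fos, the immediate early gene that serves as a check of stimulation, was called higher with KCl in both cultures, with log2 differences of 0.99 ± 0.23 in MGE and 0.96 ± 0.23 in CTX (limma, adjusted p = 0.00514 in MGE and 0.0153 in CTX). Npas4, an activity-regulated factor, was at 0.54 ± 0.21 in MGE and 0.37 ± 0.21 in CTX and was not called (limma, adjusted p = 0.157 in MGE and 0.53 in CTX).

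For Nfia the log2 difference of KCl over unstimulated was 0.47 ± 0.26 in MGE (limma, adjusted p = 0.404) and 0.37 ± 0.26 in CTX (limma, adjusted p = 0.658). Per Mb called, both CTX KCl libraries lay above both CTX unstimulated ones, though the unscaled lengths overlapped. In MGE the 2 groups overlapped. How many of all windows show such an order of libraries was not counted, here or for the other members. The MGE value rested on single libraries. Leaving out 1 of them leaves 1 library in the MGE KCl group, which the fit takes to vary like the other groups. Without MGE KCl library 1 the difference was 1.22 and was called (limma, adjusted p = 0.00032), and without MGE KCl library 2 it was −0.29 (limma, adjusted p = 0.792). With lists cut to equal called bases it was −0.44 in MGE (limma, adjusted p = 0.371).

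For Nfib it was −0.61 ± 0.27 in MGE (limma, adjusted p = 0.22) and 0.31 ± 0.27 in CTX (limma, adjusted p = 0.773), and the difference of the responses was −0.92 ± 0.38 (limma, adjusted p = 0.538). Per Mb called, both CTX KCl libraries lay above both CTX unstimulated ones, though the unscaled lengths overlapped. In MGE the KCl libraries lay on both sides of the unstimulated ones. With 1 library left in the MGE KCl group, whose spread is then taken from the other groups, calls changed. The MGE difference was called without MGE KCl library 2, so with library 1, the one with 1 peak, alone (−1.35, limma adjusted p = 0.000601), as was the difference of the responses (−1.66, limma adjusted p = 0.00381). Without MGE KCl library 1 the MGE difference was 0.12 (limma, adjusted p = 0.931). With equal called bases it was −1.02 and called (limma, adjusted p = 0.0412).

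For Nfix the log2 difference was −0.13 ± 0.20 in MGE (limma, adjusted p = 0.856) and 0.19 ± 0.20 in CTX (limma, adjusted p = 0.839). Per Mb called, both CTX KCl libraries again lay above both CTX unstimulated ones. Both MGE KCl libraries lay below both MGE unstimulated ones, though library 1 of each stood at 259 bp per Mb in MGE KCl and 260 bp per Mb in MGE unstimulated cultures. The unscaled Nfix lengths overlapped in both cultures. For Nfic the log2 difference was −0.49 ± 0.21 in MGE (limma, adjusted p = 0.191) and 0.11 ± 0.21 in CTX (limma, adjusted p = 0.942). Per Mb called, both MGE KCl libraries lay below both MGE unstimulated ones at Nfic, though the unscaled lengths overlapped. In CTX the KCl and unstimulated libraries overlapped at Nfic. The exact permutation test of KCl against unstimulated within cultures (36 relabellings, two-sided, smallest possible p = 0.0556) gave p = 0.111 for Nfia, 0.333 for Nfib, 0.278 for Nfic and 0.667 for Nfix, and 2 libraries against 2 alone allow no p below 0.33. These standard errors leave room for responses of either sign, so a p above the threshold does not show that the loci did not respond.

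**Figure D3:**
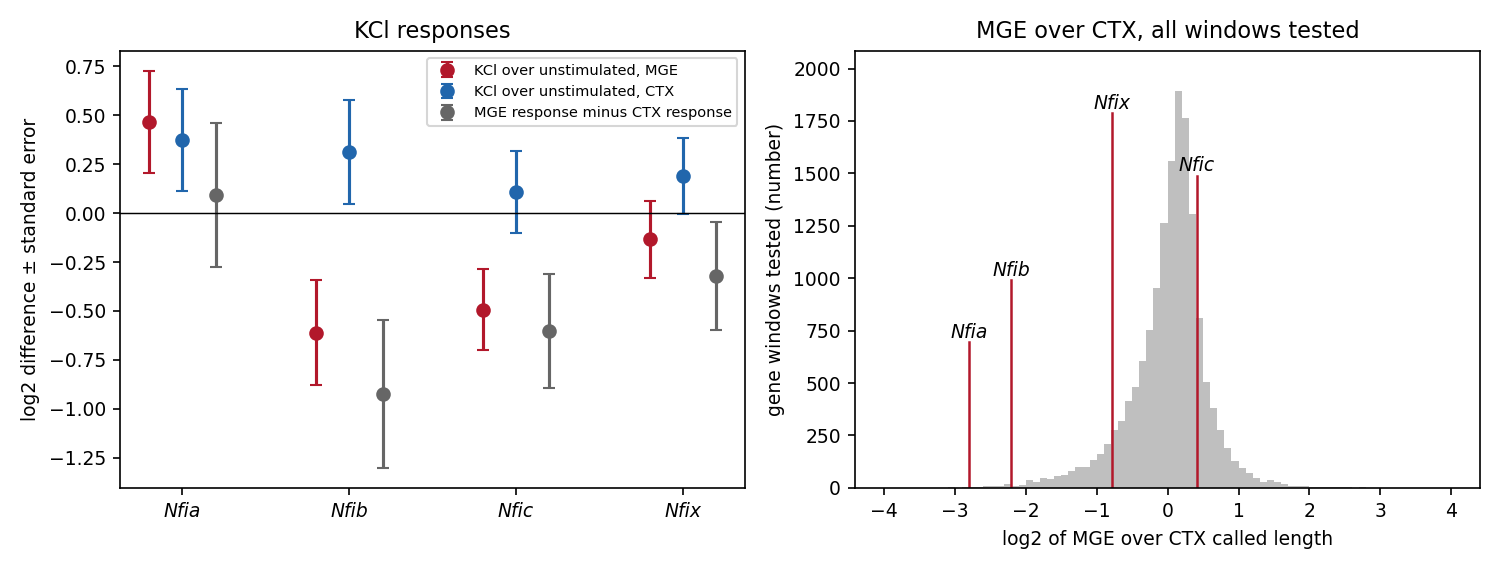
Left, limma log2 differences of KCl over unstimulated called length in MGE and CTX cultures and the difference of the 2 responses, with standard errors, for the 4 genes. Right, the log2 differences of MGE over CTX for the 15393 windows tested as a histogram, with the 4 genes marked at −2.80, −2.20, −0.79 and 0.41.

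In bins of 500 bp, the shares gained with KCl lay near those of the genome in both cultures. Bins called in both KCl and neither unstimulated library were 4 of 68 in MGE (5.88%, against 8.4% of callable bins in the genome), 3 of them at Nfix and 1 at Nfia. In CTX they were 18 of 242 (7.44%, against 6.32%), 8 at Nfia, 6 at Nfix, 2 at Nfib and 2 at Nfic. Lost bins were 3 of 68 in MGE (4.41%, against 3.88%), all at Nfic, and 1 of 242 in CTX (0.413%, against 3.78%), at Nfia. Only 2 runs of at least 2 gained bins were found, both in CTX: chr4:98107001-98108000 within Nfia and chr8:84771001-84772000 within Nfix. A peak of CTX unstimulated library 2 touched each of them. A bin must be called in both libraries of a group and in neither of the other, so leaving out a library can only lengthen these sums. Gained bins in MGE were 2.0 kb and became 10.0 kb without MGE KCl library 1, and gained bins in CTX were 9.0 kb and became 34.5 kb without CTX KCl library 1 and 23.5 kb without CTX unstimulated library 2. Lost bins in MGE were 1.5 kb and became 3.0, 4.5 and 6.0 kb without MGE KCl library 2, MGE unstimulated library 1 and MGE unstimulated library 2, and lost bins in CTX were 0.5 kb and became 8.5, 12 and 3.5 kb without CTX KCl library 2, CTX unstimulated library 1 and CTX unstimulated library 2.

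A single merged peak of the 167 (0.599%) was called in all 4 KCl and no unstimulated library, against 0.562% of merged peaks in the genome. It lay inside Nfia at chr4:98031021-98032046, 1026 bp long, with fold enrichments of 3.35 and 2.85 in MGE KCl and 2.98 and 2.81 in CTX KCl libraries.

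Genes tied to NFI in the literature were in part lower in MGE as well. The list held 14 genes, 13 of them tested: regulators of gliogenesis and progenitors (Sox9, Zbtb20, Hes1, Ezh2, Insc), genes of astroglia (Gfap, Apcdd1, Mmd2, Zcchc24), the chromatin-linked factor gene Bbx, and genes studied in maturing cerebellar neurons (Gabra6, Cntn2, Efnb1, Etv1). In MGE over CTX 8 of 13 were called lower, 0 higher and 5 did not pass, with a median log2 difference of −0.58, against 0.0964 over all windows tested, of which 14.8% were called lower and 15.1% higher. Zcchc24 had the lowest value, −1.73 ± 0.17 (limma, adjusted p = 1.47e-11). Sox9, a glial fate factor that cooperates with Nfia, was at −1.37 ± 0.22 (limma, adjusted p = 3.07e-06), Hes1, a Notch effector, at −1.52 ± 0.29 (limma, adjusted p = 3.91e-05), and Gfap, the astrocyte intermediate filament, at −1.19 ± 0.17 (limma, adjusted p = 2.12e-07). Of the genes studied in cerebellar neurons, Etv1, an ETS-family transcription factor gene, was at −1.68 ± 0.23 (limma, adjusted p = 6.13e-08) and Efnb1, an ephrin gene, at −0.80 ± 0.24 (limma, adjusted p = 0.00743). The other 2 called lower were Bbx at −0.58 ± 0.17 (limma, adjusted p = 0.0073) and Zbtb20 at −0.48 ± 0.15 (limma, adjusted p = 0.0125).

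The KCl comparison of the same list gave 2 of 13 higher and 1 lower in MGE and 0 of 13 in CTX, where 2.75% of all windows were called higher and 1.69% lower in MGE, and 0.864% higher and 0.617% lower in CTX. Sox9 was at 35.4 and 75.2 bp per Mb in MGE KCl, against 0 and 14.9 bp per Mb in MGE unstimulated libraries, a log2 difference of 1.46 ± 0.32 (limma, adjusted p = 0.00278). Bbx was at 144 and 105 bp per Mb in MGE KCl, against 56.6 and 54.7 bp per Mb in MGE unstimulated libraries (0.92 ± 0.24, limma adjusted p = 0.0164). Cntn2, a neuronal adhesion molecule, fell to 72.6 and 68.8 bp per Mb in MGE KCl, against 150 and 148 bp per Mb in MGE unstimulated libraries (−0.90 ± 0.23, limma adjusted p = 0.0139). For each of these 3 genes the KCl and unstimulated libraries did not overlap. The 3 were named because limma called them on the same values, so that order is no further support. None of the 13 was called for the difference of the responses. Among astrocyte markers 1 of 5 tested, Slc1a2, was called higher with KCl in MGE, at 169 and 174 bp per Mb in MGE KCl, against 61.3 and 65.9 bp per Mb in MGE unstimulated libraries (limma, adjusted p = 0.000923), and 0 of 5 were called in CTX. Among microglial markers 1 of 5, P2ry12, was called higher with KCl in MGE, at 25.5 and 38.5 bp per Mb in MGE KCl, against 0 bp per Mb in both MGE unstimulated libraries (limma, adjusted p = 0.0264), and 0 of 5 were called in CTX. The part of such markers in the list's changes was not tested.

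**Figure D4:**
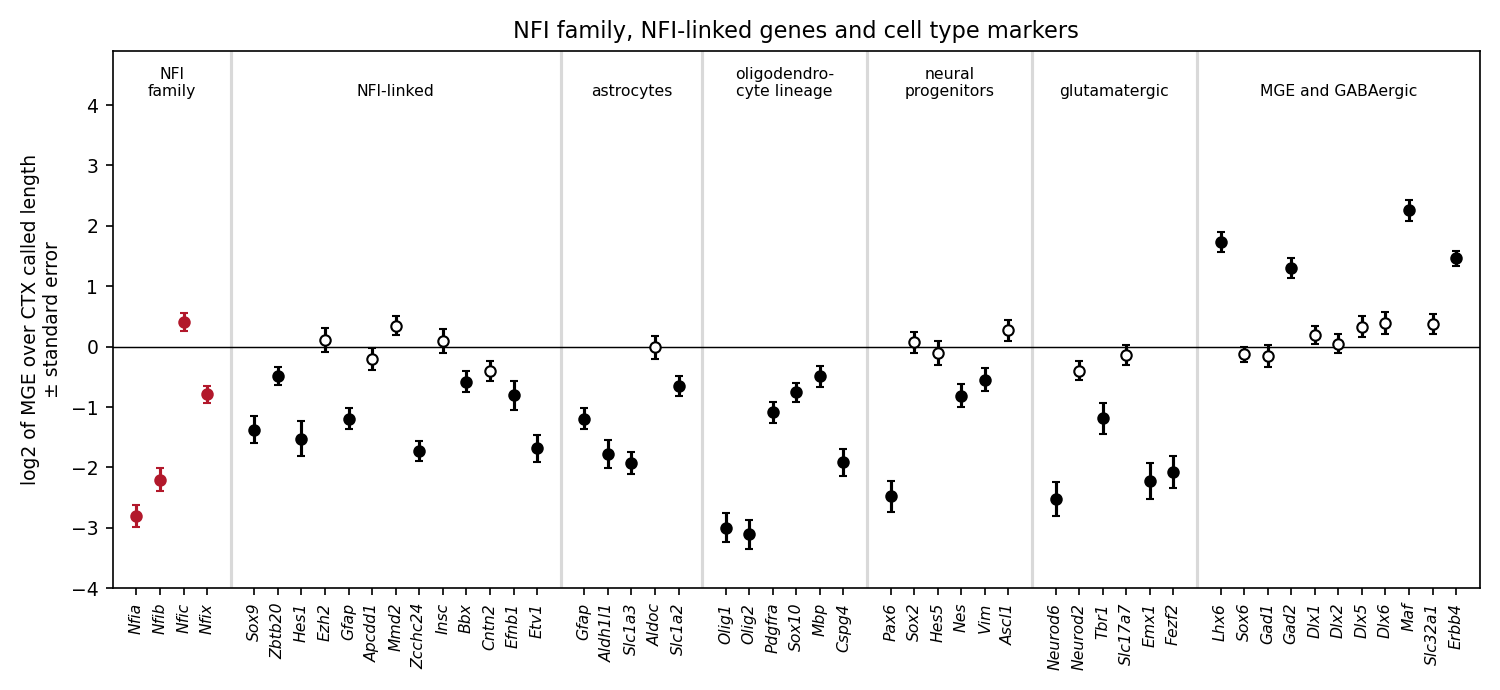
Log2 difference of MGE over CTX called length with its standard error for the NFI family (red), the NFI-linked genes and markers of 5 cell types; filled points were called at an adjusted p under 0.05 and open points were not. Oligodendrocyte lineage markers are all lower in MGE, as are 4 of 5 astrocyte markers, and 4 of 11 MGE and GABAergic markers are higher.

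Markers of other cell types moved between the cultures together with the NFI family. Astrocyte markers were lower in MGE at 4 of 5 genes tested, and the 8 listed summed to 290 to 629 bp per Mb in MGE and 851 to 1002 bp per Mb in CTX libraries, with the water channel gene Aqp4 at 0 in all 4 MGE libraries. Oligodendrocyte lineage markers were lower at 6 of 6, summing to 263 to 459 bp per Mb in MGE and 1022 to 1278 bp per Mb in CTX, and Olig1 and Olig2 were at 0 in library 1 of both MGE groups. Neural progenitor markers were lower at 3 of 6 (Pax6, Nes and Vim), summing to 523 to 736 bp per Mb in MGE and 758 to 820 bp per Mb in CTX. Their part in the NFI difference was not tested. In bulk cultures, fewer cells that carry a peak and less acetylation per cell cannot be told apart.

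Neuronal markers followed the culture labels where they were called. Among glutamatergic cortical genes 4 of 6 were lower in MGE, with Neurod6 and Emx1 at 0 in all 4 MGE libraries. Among MGE and GABAergic genes 4 of 11 were higher in MGE, among them Lhx6 at 1.73 ± 0.17 (limma, adjusted p = 1.61e-11) and Gad2 at 1.31 ± 0.16 (limma, adjusted p = 8.81e-09), and Nkx2-1 was at 0 in all 4 CTX libraries. The 11 also hold neighbouring genes whose windows share peaks, such as Dlx5 and Dlx6, both at 230 bp per Mb in MGE KCl library 1. Microglial markers had 1 of 5 higher and 1 lower, and endothelial and mural markers 1 of 3 lower.

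The windows whose coverage was most like each member's were ranked by Pearson's r of log2(bp per Mb + 20) over the 8 libraries. Only windows with a mean of at least 5 kb called were ranked. The 8 points share their library totals and fall into 2 cultures, so r is a description. Nfia was closest to Kcnn3, a calcium-activated potassium channel gene (r = 0.992), Caln1 (0.99) and Slc1a3, the astrocyte glutamate transporter (0.987). Nfib was closest to Maml2, a Notch coactivator gene (0.99), Nckap5 (0.986) and Csmd1 (0.981). Nfix was closest to Sema3f, Slc38a3 and Gnat1 (0.986, 0.978 and 0.973), which lie on chromosome 9, and Nfic to Ranbp1, Dnmt3a and Prkar1b (0.965, 0.961 and 0.96).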

How the data were processed

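H3K27ac peak lists of 8 libraries were used, in broad-peak format on mm10. The submitters' processing notes name MACS3 3.0.0a7, Bowtie2 2.3.3, cutadapt 1.18 and deepTools 3.4.3; settings and any input control are not given in the sources used. The fold enrichment, a linear ratio, and the −log10 p and −log10 q of each peak are the authors' deposited values. Lists held 36035 to 66827 peaks and 21.1 to 44.7 Mb; more reads yield more peaks, and the number of reads is unknown. The 29 peaks off chromosomes 1 to 19 and X were left out.

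Called bases in each protein-coding span (RefSeq, GRCm38.p6) and 50 kb to each side were divided by the Mb called, and log2(value + 20) was fitted with limma 3.58.1 (R 4.3.3; 4 groups, trended prior) over 15393 windows with a mean of at least 1 kb, with Benjamini-Hochberg adjustment; the script was tested on simulated data. Differences on this scale understate the change of low values. Bins of 500 bp counted as called when 50% covered. Exact permutation tests used libraries. Python 3.11.15 did the rest. The text names the 4 genes, 3 most alike windows for each, neighbours with a large share of the window, called genes of the NFI-linked list, stimulation and culture checks and the longest regions. A listed marker gene is not reported here. Members, lists and rules were chosen with earlier results of these data known. Alternatives were other scalings, windows, filters, pseudocounts, bins and left-out libraries.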

Additional observations from a re-analysis of the deposited data

Results flagged for a closer look

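At Nfib, MGE KCl library 1 had 22.7 bp per Mb called, far below the other MGE libraries, which had 98.4 bp per Mb in MGE KCl and 89.2 and 88.2 bp per Mb in MGE unstimulated cultures. Its gap to the nearest library was 0.865 of the range of the 4 MGE libraries. Of 8 such groups of 4 libraries, 2 for each member, this was the 1 past Dixon's 95% critical value, which chance passes in about 1 of 20 groups. This library had 1 peak in the Nfib window.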

How the results depend on the processing

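The lower coverage of Nfia and Nfib in MGE kept its direction and its call under all 19 alternatives; for Nfix it was lost at −log10 q of at least 5, when 2 of 4 members were called in place of 4. The Nfic difference was −0.045 (log2) without scaling, where its exact test gave −435.5 bp, and it was also not called by number of peaks (0.10, limma adjusted p = 0.725). Leaving out a library leaves a group with 1, assumed to vary like the others. Members called for KCl in MGE numbered 0 to 1 over left-out libraries and 1 with equal called bases, and for the difference of responses 0 to 1. Windows called over the alternatives numbered 0 to 457 for KCl in CTX (228 as reported), 0 to 984 in MGE (683), 0 to 132 for the difference (52) and 426 to 5385 for MGE over CTX (4588), with 0 for each KCl comparison without scaling; the cause was not tested.

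The following directions turned, none of them called: the KCl log2 difference of Nfic in CTX was −0.15 with 20 kb flanks and −0.50 over the span; in MGE that of Nfia was −0.44 with equal called bases and −0.29 without MGE KCl library 2, that of Nfix 0.10 with equal called bases and 0.10 without scaling, and that of Nfib 0.12 without MGE KCl library 1; the difference of responses of Nfia was −0.51 at −log10 q of at least 5, −0.81 with equal called bases, −0.025 with a pseudocount of 100, and −0.11, −0.66 and −0.22 without CTX KCl library 1, MGE KCl library 2 or MGE unstimulated library 1, within a range of −0.66 to 0.85 over left-out libraries. That range was −1.35 to 0.12 for the KCl difference of Nfib in MGE. The exact KCl difference of Nfix, 17.8 bp per Mb as reported, was −58.3 at −log10 q of at least 5 and −10.9 over the span.

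Bin lengths over the 4 windows moved with the bin rule, and leaving out a library can only lengthen them. CTX-only bins made up 10.5 kb as reported, 23.5 kb with any overlap, 4.0 kb at 100% of a bin, 3.5 kb at −log10 q of at least 5, 16 kb in bins of 1000 bp and 10.5 to 20.5 kb over left-out libraries. MGE-only bins were 0 kb as reported, 1.0 kb with any overlap, 0.5 kb with equal called bases, 0.4 kb in bins of 200 bp and 0 to 0.5 kb over left-out libraries. KCl-gained bins in CTX were 9.0 kb, 4.5 kb at 100%, 3.0 kb at −log10 q of at least 5, 4.0 kb with equal called bases and 9.0 to 34.5 kb over left-out libraries; in MGE they were 2.0 kb, 0.5 kb at 100%, 0 kb at −log10 q of at least 5, 1.0 kb in bins of 1000 bp, 0.5 kb over the span and 2.0 to 10.0 kb. Lost bins in CTX were 0.5 kb, 1.0 kb with any overlap, 0 kb at 100% and at −log10 q of at least 5, 2.5 kb with equal called bases, 1.2 kb and 1.0 kb in bins of 200 and 1000 bp and 0.5 to 12 kb; in MGE they were 1.5 kb, 0.5 kb at 100%, 0 kb in bins of 1000 bp and 1.5 to 6.0 kb.

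Libraries of the same number in different groups had deviations correlated at −0.10 to 0.39. The highest, 0.39, was between CTX KCl and CTX unstimulated libraries, against 0.08 between MGE KCl and MGE unstimulated libraries. A shared replicate effect in CTX is therefore possible. The numbers were not taken as pairs in the main fit, and a fit with them as a block was run beside it. With replicate number as a block, 0 of 4 members were called for each KCl comparison and 4 of 4 for MGE over CTX, and windows called numbered 312, 871, 41 and 5385 for KCl in CTX, KCl in MGE, the difference and MGE over CTX.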
